A study of Mus musculus with 12 samples.

Results

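The genes of elastic fibres and of the lysyl oxidases that cross-link them were examined in superficial zone (SFZ) and deep zone (DZ) chondrocytes of young mice. Members were taken by gene symbol from the deposited table of expression values, and all 10 (Eln, Fbn1, Fbn2, Fbln5, Emilin1, Lox, Loxl1, Loxl2, Loxl3 and Loxl4) were present among its 17536 genes. All 10 passed the filter on low values in every comparison. RNA was sequenced from cells of 5-day-old C57BL/6 mice that were either Runx3 fl/fl (R3-Cntl) or Col2a1-Cre; Runx3 fl/fl (R3-cKO), with 3 libraries for each genotype and zone and 12 libraries in all. Both genotypes carry the floxed Runx3 alleles, and the Cre that removes them is driven by Col2a1, so cells that have never used that promoter are not targeted. According to the methods, ligaments and tendons were cut away, SFZ cells were released by trypsin and then collagenase, and DZ cells came from a further collagenase digestion of the epiphyseal cartilage that remained. The methods describe monolayer culture of dissociated cells on fibronectin-coated dishes for all experiments.

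Elastic fibres form when soluble tropoelastin is laid down on a scaffold of fibrillin microfibrils, guided by glycoproteins such as fibulin-5 and emilin-1. Lysyl oxidases are copper-dependent enzymes that oxidise lysine side chains in tropoelastin and in fibrillar collagens, which lets neighbouring chains cross-link. In articular cartilage, cross-linked collagen carries most of the tensile load, and elastin and fibrillin are found mainly near the joint surface and around the cells.

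Values are taken as FPKM, the fragments of a gene scaled to its transcript length and to the library. The unit is not written beside them, and comparisons of level between genes rest on this reading. By its name, the deposited table had been put on a common scale by TMM (a trimmed mean of log ratios). The methods instead name quantile normalization, a log scale of read counts and linear models for the genotype tests. The legends of the supplementary gene lists name DESeq2 fits, which need counts that this table does not hold. The number of reads behind a value is unknown, and error is judged from the spread between libraries alone. Values of a group are given in the order of the library numbers. Differences are on the scale of log2(FPKM + 1), which understates changes of genes with low values, and zone differences are DZ minus SFZ. They were tested two-sided by limma with adjustment over all genes tested, and a gene was called at an adjusted p under 0.05. For 3 libraries against 3, the smallest p of an exact two-sided permutation test is 0.1.

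Runx3 (Entrez gene 12399), the targeted gene, was measured in every library as a check of the genotype labels. SFZ cells gave 10.73, 5.98 and 6.65 FPKM for R3-Cntl and 11.83, 9.07 and 3.42 FPKM for R3-cKO. DZ cells gave 12.67, 12.65 and 7.66 FPKM for R3-Cntl and 15.95, 12.66 and 8.14 FPKM for R3-cKO. The ranges of the genotypes overlapped in both zones, with differences of -0.04 in the SFZ (exact permutation p = 1) and 0.13 in the DZ (exact permutation p = 0.6). The table holds 1 value for the whole gene, and reads over the floxed part alone were not measured. Since the ranges of the whole-gene value overlapped, the second genotype is called "the libraries labelled R3-cKO" below. Where it is written R3-cKO for short, this too refers to the label alone. The Y-linked gene Ddx3y measured 4.96 to 21.09 FPKM in the R3-Cntl libraries and 10.66 and 12.67 FPKM in number 1 of R3-cKO in the SFZ and DZ, but at most 0.02 FPKM in numbers 2 and 3 of R3-cKO in either zone. The part of this Y-linked difference in any genotype result was not tested.

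The order of the members by mean FPKM differed between the zones. In SFZ cells Lox was the highest (340 ± 210, SD, n = 6), followed by Loxl4 (129 ± 75.9), and Loxl3 was the lowest (29.5 ± 14.0), although Eln was lower than Loxl3 in SFZ libraries labelled R3-cKO (means of 20.5 and 27.7). The 7 members between them had means of 40.5 to 73.6 FPKM, and neighbours in that order differed by less than the larger of their SDs. In DZ cells the order began with Loxl4 (246 ± 126), Loxl2 (163 ± 30.0) and Lox (146 ± 93.3), which differed by less than the SD of Loxl4. It ended with Eln (3.90 ± 2.27). The place of Lox in the DZ was not the same in both genotypes, since its mean of 66.2 FPKM for R3-Cntl lay below Emilin1 (114) and its mean of 225 FPKM for R3-cKO lay above Loxl2 (153). Emilin1 (101 ± 15.3) and Loxl3 (61.1 ± 20.4) stood between those 3 genes and the remaining members, of which Fbn1, Loxl1, Fbln5 and Fbn2 had means of 26.9, 20.8, 14.7 and 13.5 FPKM. Summed over the 10 genes, a library held 540 to 1307 FPKM, and the members made up 0.126 to 0.315% of all FPKM in a library.

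**Figure D1:**
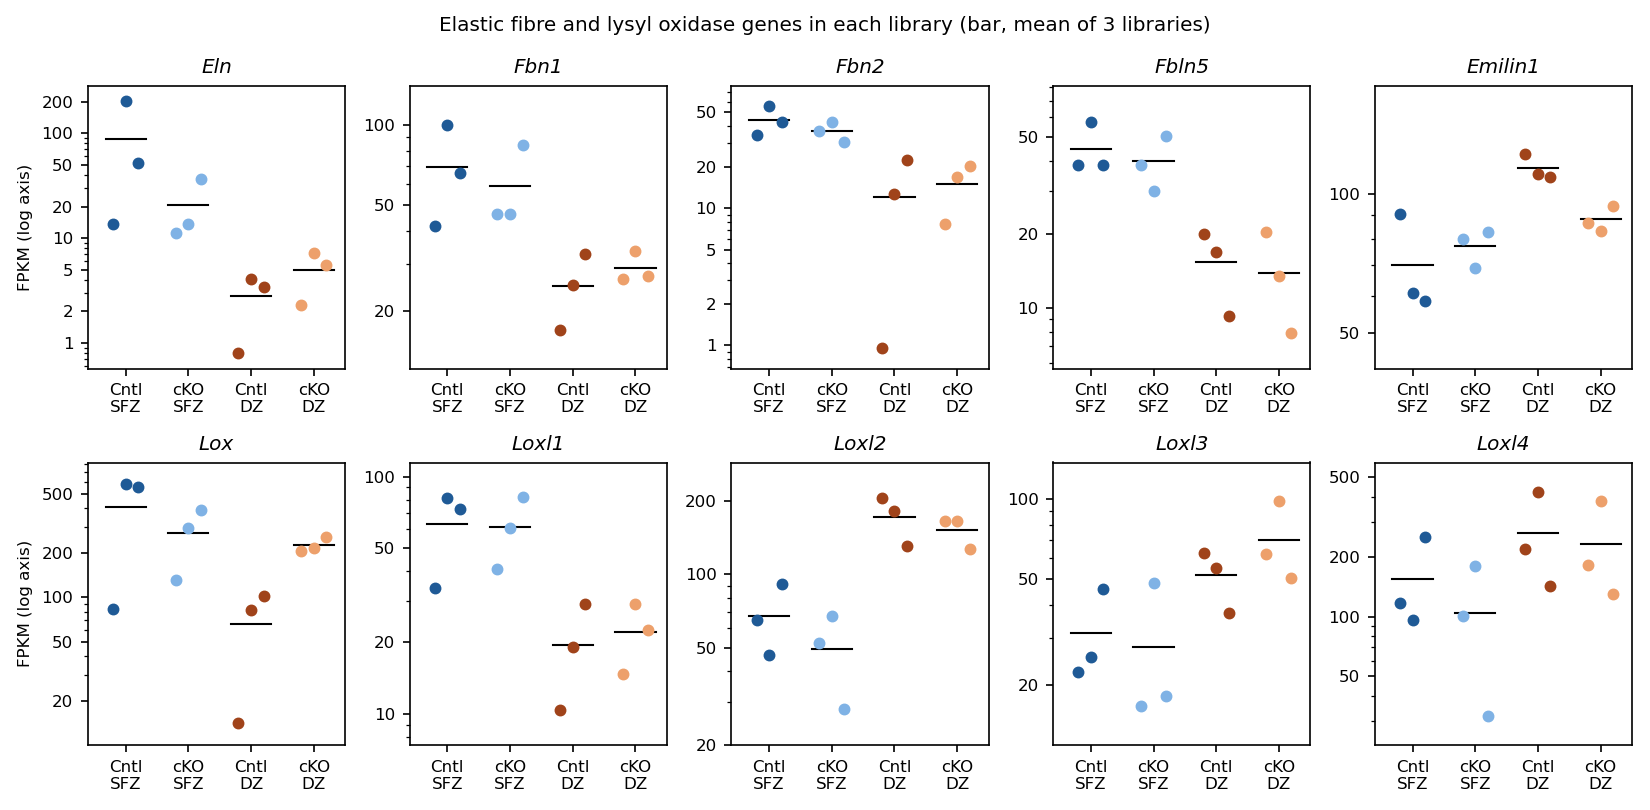
FPKM (log axis) of each of the 10 genes in each library, grouped by genotype and zone, with a bar at the mean of 3 libraries. Eln ran from 0.80 FPKM in a DZ library to 201.31 FPKM in an SFZ library, and Loxl2 was at least 127.50 FPKM in every DZ library and at most 91.10 FPKM in every SFZ library.

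Eln (Entrez gene 13717; mm9 chromosome 5, 135179651 to 135223111, reverse strand) encodes tropoelastin, the elastic core of the fibre. The R3-Cntl SFZ libraries held 13.77, 201.31 and 51.81 FPKM, and those labelled R3-cKO held 11.31, 13.67 and 36.55 FPKM. The R3-Cntl DZ libraries held 0.80, 4.12 and 3.41 FPKM, and those labelled R3-cKO held 2.30, 7.15 and 5.59 FPKM. Every SFZ value lay above every DZ value, and R3-Cntl SFZ library 2 stood far above the other SFZ libraries. The zone difference over both genotypes was -2.86 (standard error 0.59, 7.28-fold, limma adjusted p = 0.0102). Leaving out R3-Cntl SFZ library 2 gave -2.39 with an adjusted p of 0.0174, and Eln stayed called without any 1 of the 12 libraries. In bulk samples, fewer cells of a type and less RNA per cell cannot be told apart.

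R3-Cntl SFZ library 2 also held the most skeletal muscle marker RNA. The 7 genes of that list summed to 119 FPKM in it, with Acta1 at 38.03, Mylpf at 40.23, Myh3 at 10.62 and Myog at 9.36 FPKM, and to between 5.34 and 19.3 FPKM in the other 11 libraries. Myog and Myh8 were listed at 0 in all 6 DZ libraries, and Ckm in 8 of all 12 libraries. The chondrocyte markers had their lowest sum in the same library, 4729 FPKM. Without it Eln in R3-Cntl SFZ was still 13.77 and 51.81 FPKM, both above every DZ value. The part of muscle RNA in the Eln value of 201.31 FPKM was not tested.

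The fibrillins form the microfibrils. Fbn1 (Entrez gene 14118; mm9 chromosome 2, 125126330 to 125333729, reverse strand) encodes fibrillin-1, the main microfibril protein after birth. Across SFZ cells it stood at 41.82, 100.13 and 66.12 FPKM for R3-Cntl and at 46.22, 46.39 and 83.94 FPKM for R3-cKO. Across DZ cells it stood at 16.97, 24.90 and 32.70 FPKM for R3-Cntl and at 26.29, 33.46 and 27.04 FPKM for R3-cKO. The zones did not overlap, and the highest SFZ value again came from R3-Cntl library 2. Fbn1 had a zone difference of -1.18 (standard error 0.24, 2.26-fold, limma adjusted p = 0.00963) and was called without each library in turn, at -1.33 to -1.02. Per unit of Fbn1, Eln made 0.245 to 2.01 in the SFZ and 0.0471 to 0.214 in the DZ, so the ratio of the FPKM of the elastic core to that of its scaffold was higher in every SFZ library than in any DZ library.

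Promoter sequence is shown for Fbn1 and for Emilin1, a member that was higher in the DZ, as a pair that moved in opposite directions between the zones. The windows are the 250 bases before the start site in RefSeq on GRCm38.p6, printed 5′ to 3′ on the strand of the gene, with CG dinucleotides, whose cytosine can be methylated, in capitals. The Fbn1 window is chr2:125506439-125506688 on the reverse strand and the Emilin1 window is chr5:30913536-30913785 on the forward strand.
Fbn1: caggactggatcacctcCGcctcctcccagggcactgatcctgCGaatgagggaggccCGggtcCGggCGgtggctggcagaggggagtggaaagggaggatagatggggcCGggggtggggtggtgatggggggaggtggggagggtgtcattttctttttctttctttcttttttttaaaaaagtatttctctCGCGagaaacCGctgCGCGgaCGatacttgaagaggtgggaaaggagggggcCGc
Emilin1: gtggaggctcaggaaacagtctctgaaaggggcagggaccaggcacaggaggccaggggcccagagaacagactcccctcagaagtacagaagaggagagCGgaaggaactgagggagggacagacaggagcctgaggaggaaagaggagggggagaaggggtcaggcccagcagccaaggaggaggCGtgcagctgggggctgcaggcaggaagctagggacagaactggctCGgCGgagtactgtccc
The Fbn1 window held 13 CG dinucleotides at a GC content of 59.2%, and the Emilin1 window held 4 at 63.2%. CG occurred in 92.1% of the 32851 windows of this length, with a median count of 6 and a median GC content of 52.4%. Of the 10 members, 4 matched the table (Fbn1, Emilin1, Fbln5 and Loxl4), with 5 windows, and Eln, Fbn2, Lox, Loxl1, Loxl2 and Loxl3 did not. The hexamers TGTGGT and TGCGGT, forms of the Runx motif, were searched on both strands and were in 0 of these 5 windows and in 18.6% of all windows. Forms that end in C, which the motif reported for Runx3 in the study also allows, were not searched. The letters of a window do not show whether a factor binds there.

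Fbn2 (Entrez gene 14119; chromosome 18) encodes fibrillin-2, a microfibril protein made mostly during development. Among SFZ cells, R3-Cntl had 34.01, 55.73 and 42.73 FPKM and R3-cKO 36.69, 42.90 and 30.70 FPKM. Among DZ cells, R3-Cntl had 0.95, 12.70 and 22.56 FPKM and R3-cKO 7.67, 17.05 and 20.21 FPKM. No DZ value reached the SFZ range, and R3-Cntl DZ library 1 was the lowest by a wide margin. The zone difference of Fbn2 was -1.85 (standard error 0.52, 3.60-fold, limma adjusted p = 0.0326), and it became -1.31 with an adjusted p of 0.0149 without that library. The call was sensitive to other libraries. Without R3-Cntl SFZ library 2 or 3 the adjusted p was 0.0827 or 0.0571. Without SFZ library 1, 2 or 3 of R3-cKO it was 0.0615, 0.0502 or 0.0568, and without DZ library 1 of R3-cKO it was 0.0770. Scaling the libraries by median-of-ratios size factors also cost Fbn2 its call, at an adjusted p of 0.0516.

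Fbln5 and Emilin1 act where elastin meets the microfibril. Fbln5 (Entrez gene 23876; mm9 chromosome 12, 102984775 to 103057265, reverse strand) encodes fibulin-5, which binds tropoelastin, Loxl1 and integrins. SFZ libraries of R3-Cntl held 38.21, 57.53 and 38.30 FPKM, and SFZ libraries of R3-cKO held 38.51, 29.95 and 50.45 FPKM. DZ libraries of R3-Cntl held 20.13, 16.99 and 9.25 FPKM, and DZ libraries of R3-cKO held 20.41, 13.50 and 7.94 FPKM. All 6 DZ values were below the lowest SFZ value. Its zone difference was -1.51 (standard error 0.25, 2.84-fold, limma adjusted p = 0.00437) over both genotypes, -1.51 in R3-Cntl and -1.50 in the libraries labelled R3-cKO.

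Emilin1 (Entrez gene 100952; mm9 chromosome 5, 31215775 to 31223651, forward strand) encodes emilin-1, a glycoprotein at the border of elastin and microfibrils. It was the only elastic fibre protein gene of the list with a higher mean in DZ cells. In the SFZ, R3-Cntl cells gave 90.53, 61.07 and 58.69 FPKM and R3-cKO cells 79.88, 69.18 and 82.52 FPKM. In the DZ, R3-Cntl cells gave 122.02, 110.49 and 108.61 FPKM and R3-cKO cells 86.44, 83.19 and 94.28 FPKM. Within each genotype the zones did not overlap, while across genotypes R3-Cntl SFZ library 1 lay above 2 DZ libraries labelled R3-cKO. The zone difference of 0.45 (standard error 0.11, 1.37-fold, limma adjusted p = 0.0189) had an adjusted p of 0.0569 without R3-Cntl SFZ library 2. It was 0.72 in R3-Cntl and 0.19 in the libraries labelled R3-cKO, and was called in neither (limma adjusted p = 0.0839 and 0.553).

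Lox (Entrez gene 16948; chromosome 18) encodes lysyl oxidase itself, secreted as a proenzyme and active on collagen and elastin. Across SFZ cells it stood at 83.86, 582.03 and 560.47 FPKM for R3-Cntl and at 130.46, 293.70 and 390.38 FPKM for R3-cKO. Across DZ cells it stood at 14.09, 82.31 and 102.18 FPKM for R3-Cntl and at 204.40, 216.87 and 254.38 FPKM for R3-cKO. Library 1 was the lowest of its group in all 4 groups, and the zones overlapped, since every DZ library labelled R3-cKO lay above library 1 of either SFZ group. Lox had a zone difference of -1.36 (standard error 0.60, 2.56-fold) and was not called (limma adjusted p = 0.132). Without R3-Cntl SFZ library 1 the difference was -1.82 and Lox was called, with an adjusted p of 0.0323. With the library number as a replicate block the standard error fell to 0.17 and Lox was also called (adjusted p = 0.00371), while the share of all genes called rose from 16.8 to 26.9% lower and from 3.82 to 6.66% higher. SFZ and DZ cells are described as coming from the same individual littermates of each genotype, but no label ties a library number to an animal.

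Loxl1 (Entrez gene 16949; mm9 chromosome 9, 58135530 to 58161019, reverse strand) encodes the lysyl oxidase-like enzyme that fibulin-5 brings to elastic fibres. The level in SFZ cells was 33.88, 81.54 and 73.21 FPKM for R3-Cntl and 40.84, 60.98 and 81.90 FPKM for R3-cKO. The level in DZ cells was 10.33, 19.11 and 28.94 FPKM for R3-Cntl and 14.73, 29.12 and 22.47 FPKM for R3-cKO. The lowest SFZ value was above the highest DZ value, and library 1 was again the lowest of each group. The zone difference of Loxl1 was -1.54 (standard error 0.31, 2.91-fold, limma adjusted p = 0.00855), and it stayed called with each library left out in turn.

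Loxl2, Loxl3 and Loxl4 form the branch of the family that carries scavenger receptor domains, and all 3 had higher means in DZ cells. Loxl2 (Entrez gene 94352; mm9 chromosome 14, 70008978 to 70095640, forward strand) encodes an enzyme that also cross-links basement membrane collagen. Its SFZ level was 65.03, 46.59 and 91.10 FPKM for R3-Cntl and 52.29, 67.60 and 27.94 FPKM for R3-cKO. Its DZ level was 205.49, 181.53 and 130.29 FPKM for R3-Cntl and 164.95, 165.83 and 127.50 FPKM for R3-cKO. The zones were fully separated. Loxl2 had a zone difference of 1.53 (standard error 0.23, 2.88-fold) with the lowest limma adjusted p of the 10 members, 0.00316, and was called with any single library left out (1.35 to 1.66).

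Loxl3 (Entrez gene 16950; mm9 chromosome 6, 82984167 to 83002556, forward strand) encodes a lysyl oxidase-like enzyme needed for the palate and spine in mouse development. With R3-Cntl SFZ cells it reached 22.39, 25.63 and 45.95 FPKM, and with R3-cKO SFZ cells 16.69, 48.32 and 18.21 FPKM. With R3-Cntl DZ cells it reached 62.78, 55.22 and 37.51 FPKM, and with R3-cKO DZ cells 62.27, 98.14 and 50.42 FPKM. R3-Cntl DZ library 3 fell inside the SFZ range and the other 5 DZ libraries lay above it. The zone difference was 1.08 (standard error 0.30, 2.12-fold, limma adjusted p = 0.0287). The call was lost without R3-Cntl SFZ library 1 or 2 (adjusted p = 0.0573 or 0.0754), SFZ library 1 or 3 of R3-cKO (0.0647 or 0.0673), R3-Cntl DZ library 1 or 2 (0.0713 or 0.0576), or DZ library 1 or 2 of R3-cKO (0.0545 or 0.0568).

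Loxl4 (Entrez gene 67573; mm9 chromosome 19, 42668472 to 42687303, reverse strand) encodes a further enzyme of this branch and had its widest SFZ range. Its values there were 116.81, 95.82 and 250 FPKM for R3-Cntl and 101.06, 180.36 and 31.65 FPKM for R3-cKO. Its values in DZ cells were 217.84, 424.46 and 142.74 FPKM for R3-Cntl and 181.64, 380.98 and 129.88 FPKM for R3-cKO. The zones overlapped, and library 2 was the highest DZ library of both genotypes. The zone difference of Loxl4, 1.02 (standard error 0.47, 2.03-fold), was not called (limma adjusted p = 0.144), nor was it with any single library left out (0.68 to 1.30).

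The zone comparison over both genotypes sets cells of the DZ digest against cells of the SFZ digest. It has 6 libraries against 6, which the fit treats as independent although the zones are described as sharing animals. By limma, 8 of the 10 members were called. Eln, Fbn1, Fbn2, Fbln5 and Loxl1 were lower in the DZ, a direction in which 16.8% of the 11765 genes tested were called, and Emilin1, Loxl2 and Loxl3 were higher, in which 3.82% were called. Zones that did not overlap were found for 5 members with lower DZ values (9.71% of all genes) and for Loxl2 with higher DZ values (1.64%). The median difference of the members was -1.27, against -0.14 over all genes tested. Quantile normalization moved the median of all genes to 0.04, and no member changed direction under it or under median-of-ratios scaling. The balance of all genes did depend on scaling. Quantile normalization called 6.64% lower and 9.23% higher, with 8 members called, and median-of-ratios size factors called 8.28% lower and 7.95% higher, with 7 members called. A replicate block, with the library number within its genotype, called 9 members, as Lox was added, against 26.9% of genes lower and 6.66% higher.

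The number of members called depended on single libraries. It was 5 without R3-Cntl SFZ library 2, when Fbn2, Emilin1 and Loxl3 were no longer called. The number of genes called then fell from 2424 to 1245 (10.7% of those tested). Without R3-Cntl DZ library 1 or DZ library 1 of R3-cKO, the members called were 7 or 6, with 1545 or 1588 genes called (13.2 or 13.5%). Leaving out both R3-Cntl SFZ library 2 and R3-Cntl DZ library 1, chosen after seeing the data as the libraries with the highest and lowest Eln, left 4 members called of 570 genes. Those were Eln (-2.15), Fbn2 (-1.23), Fbln5 (-1.52) and Loxl2 (1.34), while Fbn1 and Loxl1 had limma adjusted p-values of 0.0525 and 0.0547.

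**Figure D2:**
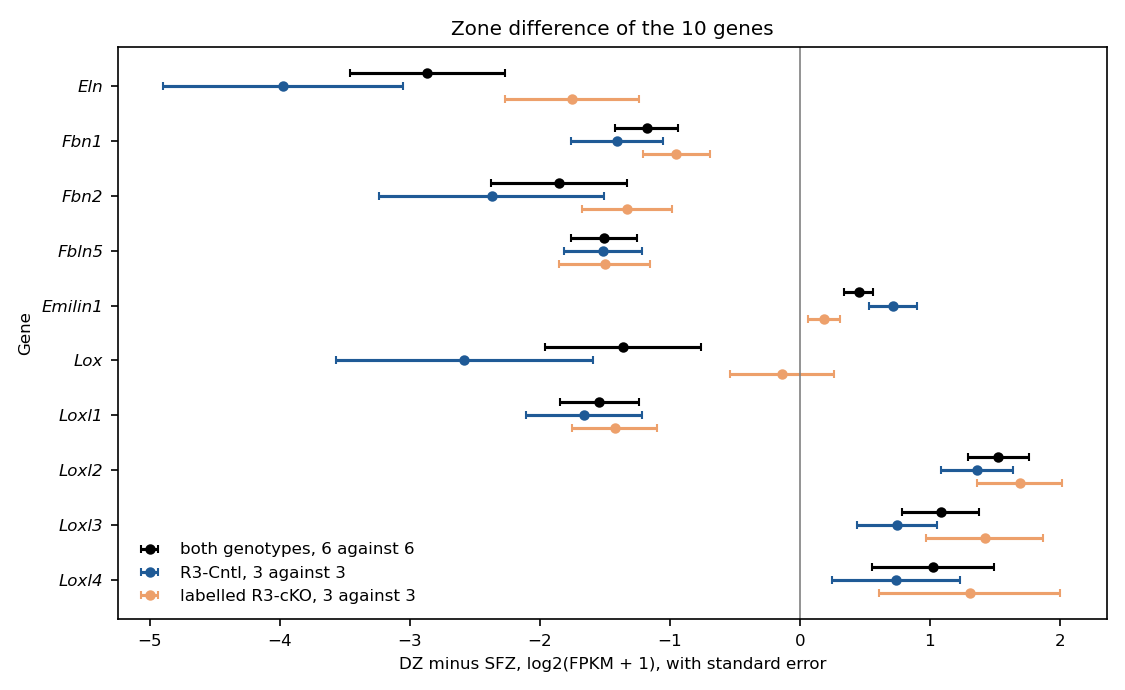
Zone difference (DZ minus SFZ, log2(FPKM + 1), horizontal axis) of the 10 genes with its standard error, over both genotypes, in R3-Cntl and in libraries labelled R3-cKO. Eln lies farthest to the left at -2.86 over both genotypes, Loxl2 farthest to the right at 1.53, and the Lox values of the separate genotypes lie apart at -2.58 and -0.14.

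The zones were also compared within each genotype, in fits that share no library. In R3-Cntl, limma called 0 members of 10, against 1.24% of the 11336 genes tested, and 9 members and 27.4% of genes had an unadjusted p under 0.05. In the libraries labelled R3-cKO it called 0 members, against 0.0176% of genes, and 7 members and 14.1% of genes had an unadjusted p under 0.05. Each member had the same direction in both genotypes, although Lox in the libraries labelled R3-cKO changed sign without SFZ library 3 (from -0.14 to 0.19). In R3-Cntl the zones did not overlap for 5 members lower in the DZ (26.5% of genes) and for Emilin1 and Loxl2 above (5.96%). In the libraries labelled R3-cKO they did not overlap for 5 members lower in the DZ (16.8%) and for Emilin1, Loxl2 and Loxl3 above (4.24%). The lower 5 were Eln, Fbn1, Fbn2, Fbln5 and Loxl1 in both genotypes.

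Eln differed between zones by -3.97 (standard error 0.92, limma adjusted p = 0.0725) in R3-Cntl and by -1.75 (standard error 0.52, adjusted p = 0.230) in the libraries labelled R3-cKO. Without R3-Cntl SFZ library 1, the R3-Cntl fit called 4 members, Eln (-4.91), Fbn1 (-1.72), Emilin1 (0.91) and Loxl1 (-2.04), with 505 genes called (4.56%), up from 140. Leaving out any other single R3-Cntl library called 0 to 4 genes and 0 members. Lox gave -2.58 in R3-Cntl (standard error 0.99, limma adjusted p = 0.157; -1.71 without R3-Cntl DZ library 1) and -0.14 in the libraries labelled R3-cKO (standard error 0.40, adjusted p = 0.927). Over 11359 genes with group means removed, same-number libraries were alike across zones in R3-cKO (correlations of 0.418, 0.781 and 0.653). They were not all alike in R3-Cntl (0.575, 0.111 and -0.151). There, SFZ library 2 gave 0.38 with DZ library 3, and SFZ library 3 gave 0.58 with DZ library 2. For R3-Cntl libraries 2 and 3 the number thus did not join the most alike libraries. With the number as a replicate block, the R3-Cntl fit called Eln (limma adjusted p = 0.0303), Fbn1 (0.0369), Fbln5 (0.0369), Lox (0.0183) and Loxl1 (0.0261). It called 831 genes in all, 6.01% of those tested lower in the DZ and 1.32% higher. The blocked fit of the R3-cKO libraries called Loxl1 (limma adjusted p = 0.0380), Loxl2 (0.0350) and Loxl3 (0.0398). It called 352 genes in all, 2.51% lower in the DZ and 0.591% higher.

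The 5 lysyl oxidases overlapped between zones in their total and differed in their make-up. Their summed FPKM ran from 322 to 1021 in the SFZ (median 600.5) and from 442 to 891 in the DZ (median 606). Lox made up 26.0 to 71.0% of that sum in SFZ libraries (median 50%) and 2.76 to 43.5% in DZ libraries (median 23.7%). Those ranges overlapped. Loxl1 made up 7.17 to 14.9% in the SFZ and 2.02 to 6.55% in the DZ, with no overlap. Loxl2 made up 5.08 to 20.2% in the SFZ and 18.6 to 40.3% in the DZ, where the only SFZ library inside the DZ range was R3-Cntl library 1.

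The ratio of Lox and Loxl1 to Loxl2, Loxl3 and Loxl4, by summed FPKM, sets the branch without scavenger receptor domains against the branch with them. In SFZ cells the ratio was 0.577, 3.95 and 1.64 for R3-Cntl and 1.01, 1.20 and 6.07 for R3-cKO. In DZ cells it was 0.0502, 0.153 and 0.422 for R3-Cntl and 0.536, 0.381 and 0.899 for R3-cKO. It exceeded 1 in 5 of 6 SFZ libraries and in 0 of 6 DZ libraries. R3-Cntl SFZ library 1 was the exception, below the highest DZ library.

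**Figure D3:**
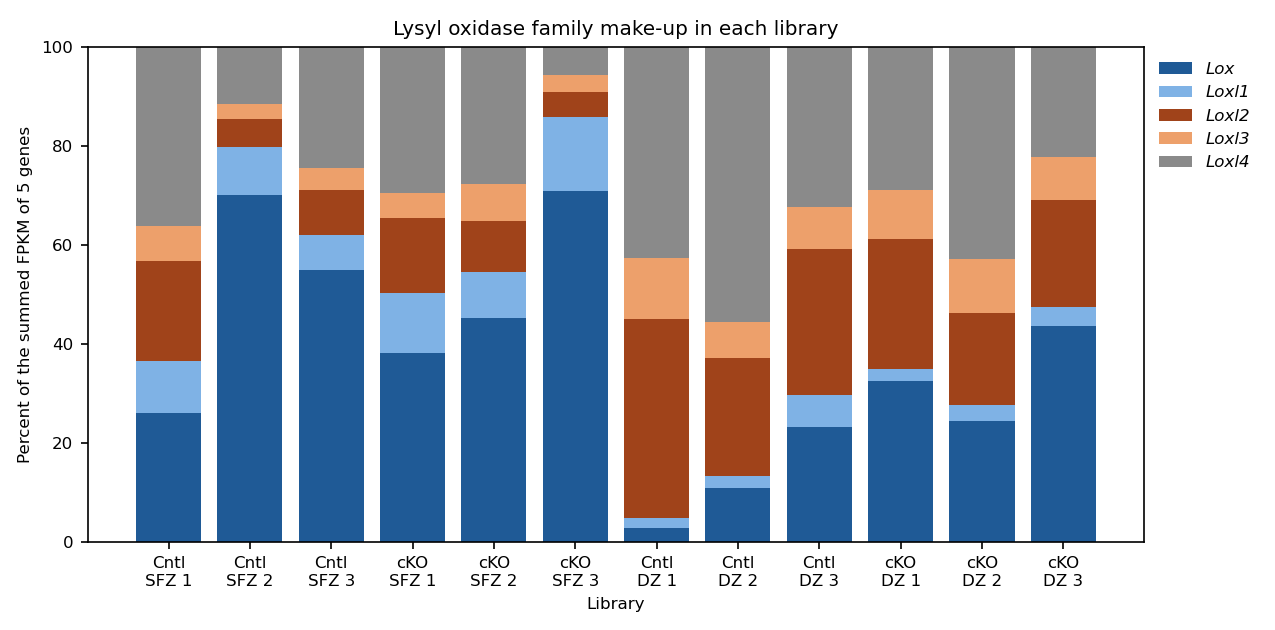
Share (percent, vertical axis) of each of the 5 lysyl oxidase genes in their summed FPKM, with a stacked bar for each library. Lox takes 26.0 to 71.0% of SFZ bars and 2.76 to 43.5% of DZ bars, and the Loxl1 share is smaller in every DZ bar than in any SFZ bar.

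The genotype comparison, made separately in each zone, is the one for which the mice were bred. In SFZ cells limma called 0 of the 10 members and 0.00% of the 11537 genes, with 0 members and 34 genes at an unadjusted p under 0.05. The genotypes did not overlap for 0 members, against 2.40% of genes. Eln had the largest SFZ difference among the members, -1.51 (standard error 0.97, exact permutation p = 0.2), which was -0.56 without R3-Cntl SFZ library 2, and leaving out R3-Cntl SFZ library 1 gave -2.45. Loxl4 followed with -0.75 (standard error 0.68, exact permutation p = 0.5), which was -0.34 without R3-Cntl SFZ library 3 and, for R3-cKO, -1.30 without SFZ library 2 and -0.06 without SFZ library 3. The order of the members was not stable, as Loxl4 (-1.02) and Loxl2 (-0.72) were both larger than Eln without R3-Cntl SFZ library 2. The remaining 8 members lay between -0.48 and 0.16. Fbn1, Fbln5, Lox, Loxl1 and Loxl3 changed sign in the SFZ with a library left out. The supplement of the study lists Eln, by its Entrez number, among the top 10 genes lower in R3-cKO SFZ cells. It gives the gene a DESeq2 P value under 0.05.

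In DZ cells limma again called 0 of the 10 members and 0.00% of the 11091 genes, with 2 members and 404 genes at an unadjusted p under 0.05. Those 2, Lox and Emilin1, were also the members whose genotypes did not overlap, against 8.03% of genes. The mean of Lox was 66.2 ± 46.2 FPKM for R3-Cntl and 225 ± 26.0 FPKM for the libraries labelled R3-cKO (SD, n = 3 each), a difference of 2.15 (standard error 0.70, 4.45-fold, limma adjusted p = 0.999). It was higher in all 3 libraries labelled R3-cKO, which gave the smallest exact permutation p, 0.1. The size rested partly on R3-Cntl DZ library 1 at 14.09 FPKM, since the difference was 1.28 without it. Emilin1 had a mean of 114 ± 7.26 FPKM for R3-Cntl and of 88.0 ± 5.70 FPKM for R3-cKO (SD, n = 3 each), a difference of -0.37 (standard error 0.12, 1.29-fold, limma adjusted p = 0.999, exact permutation p = 0.1). Same-number libraries of the 2 genotypes were alike in the DZ (correlations of 0.653, 0.781 and 0.687) but not all in the SFZ (0.787, -0.0944 and -0.415). With the number as a replicate block in the DZ, the limma adjusted p was 0.200 for Lox and for Emilin1. That fit called 0 members and had 1830 genes at an unadjusted p under 0.05. The lowest of the 10 in that blocked fit was Eln, whose genotypes overlapped, at 0.147 (difference 0.71, standard error 0.11). Without the block, its difference was 0.24 when R3-Cntl DZ library 1 and 0.44 when DZ library 2 of R3-cKO was left out. It was 1.09 when DZ library 1 of R3-cKO was left out. The Eln value was higher for R3-cKO at each of the 3 numbers. Loxl2 and Loxl4, whose genotypes also overlapped, were lower for R3-cKO at each number. Their blocked differences were -0.16 and -0.18 (limma adjusted p = 0.417 and 0.334). The share of all genes with the same direction at all 3 numbers was not counted.

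A test of whether the genotype difference itself differed between zones, with all 12 libraries, called 0 members by limma and 0.00% of the 11765 genes, with 1 member and 99 genes at an unadjusted p under 0.05. That member was Emilin1, at -0.53 (standard error 0.22, adjusted p = 0.999). Lox had a difference of 2.44 (standard error 1.20) that was 1.57 without R3-Cntl DZ library 1, and Eln one of 2.22 (standard error 1.19) that was 1.27 without R3-Cntl SFZ library 2.

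Smooth muscle markers were read beside Lox in the DZ. Acta2, the most abundant of 8 smooth muscle markers, had DZ values of 47.74, 146.98 and 70.30 FPKM for R3-Cntl and 302.37, 401.12 and 163.39 FPKM for R3-cKO. The whole list summed to 56.2, 189 and 94.8 FPKM in R3-Cntl DZ cells and to 384, 533 and 201 FPKM in DZ libraries labelled R3-cKO, so every sum of the latter was above every sum of the former, as for Lox. Acta2 and Tagln carried these sums, while Mylk and Notch3 went the other way, with DZ means of 1.84 and 0.41 FPKM for R3-Cntl and of 1.37 and 0.29 FPKM for R3-cKO. The order within a genotype was not shared, since DZ library 3 of R3-cKO had the highest Lox of its group (254.38 FPKM) and the lowest sum. In SFZ cells the sums were 89.1, 506 and 569 FPKM for R3-Cntl and 94.9, 618 and 143 FPKM for R3-cKO, lowest in library 1 of both. Myh11, which marks mature smooth muscle, was at most 0.04 FPKM in the DZ, and Rgs5 was listed at 0 in R3-Cntl DZ library 2. Between zones 2 of the 5 markers tested were called, Mylk and Notch3, both lower in the DZ. The part of these genes in the Lox difference was not tested.

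Other genes of the pathway were taken from 5 lists and compared between zones over both genotypes, beside the 16.8% and 3.82% of all genes called lower and higher in the DZ, shares that became 6.64% and 9.23% under quantile normalization. The lists themselves were not recounted under other scalings. Of 12 microfibril genes tested, 7 were lower in the DZ and 0 higher, with a median of -1.31. They were Mfap4 (-4.13), Mfap5 (-2.44), Adamtsl3 (-2.10), Ltbp4 (-1.41), Thsd4 (-1.20), Adamtsl4 (-1.19) and Adamtsl5 (-0.82), which encode microfibril-associated glycoproteins, a latent TGF-beta binding protein and ADAMTS-like proteins of the matrix. Mfap4 had a mean of 80.2 FPKM in the SFZ, or 26.4 FPKM without SFZ library 3 of R3-cKO (348.92 FPKM), and of 0.527 FPKM in the DZ, and its lowest SFZ value (5.96 FPKM) was above its highest DZ value (0.85 FPKM). The list's most abundant genes included Ltbp3 and Ltbp1, with means of 43.6 and 18.8 FPKM over 12 libraries, and neither was called. Of 6 further fibulin and emilin genes tested, Fbln2 (-2.75), Emilin2 (-2.38) and Fbln1 (-1.28) were called lower and 0 were called higher. Efemp2, which encodes fibulin-4 and is needed for Lox to reach tropoelastin, was the most abundant at a mean of 212 FPKM and was not called (-0.29, limma adjusted p = 0.291). Fbln7 and Efemp1 came next at 40.8 and 24.2 FPKM. Both ran the other way, at 0.27 and 1.06, and were not called (limma adjusted p = 0.473 and 0.103).

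Among 8 genes that process or supply lysyl oxidases, Postn (-5.21) and Pcolce (-1.23) were lower in the DZ and Fn1 (0.65) was higher. Postn and Fn1 encode periostin and fibronectin, which bind lysyl oxidase or its activating protease, and Pcolce encodes an enhancer of procollagen processing. Its relative Pcolce2, the third most abundant of the list, had means of 97.8 FPKM in the SFZ and 155 FPKM in the DZ, the other direction, and was not called (0.70, limma adjusted p = 0.116). Bmp1, the protease that activates the Lox proenzyme, had a mean of 32.2 FPKM in the SFZ and 22.1 FPKM in the DZ and was not called (-0.52, limma adjusted p = 0.0799). The copper transport genes Atp7a, Atox1 and Slc31a1 differed by -0.09, -0.05 and 0.12. Of 5 elastin-degrading enzymes tested, Ctss was lower in the DZ (-2.36) and 0 were higher. The most abundant of them, Ctsl, Mmp2 and Ctsk, had means of 136, 94.7 and 81.0 FPKM and were not called.

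The fibrillar collagens, which share lysyl oxidases with elastin, also split by zone. Of 11 tested, Col2a1 (1.57), Col27a1 (1.28), Col11a2 (1.24) and Col11a1 (1.07) were higher in the DZ. Col1a1 (-3.73), Col1a2 (-3.20), Col3a1 (-2.34), Col5a3 (-1.42), Col5a1 (-1.11) and Col24a1 (-0.86) were lower. Between genotypes limma called 0 genes of any of these 5 lists in either zone, as it called 0 of all genes.

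Marker lists of cell types were read beside the zone result. Of 11 chondrocyte markers, 9 were called higher in the DZ and 0 lower, namely Acan, Cnmd, Col2a1, Col9a1, Comp, Hapln1, Matn1, Matn3 and Sox9, and the exceptions were Col9a2 and Col9a3. Their sums, mostly Col2a1, were 15436, 4729 and 9368 FPKM in R3-Cntl SFZ cells and 13266, 7608 and 5445 FPKM in SFZ libraries labelled R3-cKO. The DZ sums were 36331, 22168 and 28435 FPKM for R3-Cntl and 23956, 15457 and 28291 FPKM for R3-cKO. The zones thus differed in this sum without overlap, although the highest SFZ sum was just below the lowest DZ sum. Taken singly, Sox9, Col2a1 and Acan did not overlap between zones, while all other markers of the list did. Matn1, for example, reached 435.7 FPKM in R3-Cntl SFZ library 1 and fell to 234 FPKM in DZ library 2 of R3-cKO.

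Of 12 fibroblast and tendon markers, 10 were called lower in the DZ and 0 higher (median -3.00), the same direction as Eln, Fbn1, Fbn2, Fbln5 and Loxl1. Those called were Cd34, Col1a1, Col1a2, Col3a1, Dpt, Mkx, Postn, Scx, Thy1 and Tnmd, and Dcn and Pdgfra were not. Dcn ran the other way, with a difference of 1.19 (limma adjusted p = 0.0641) and means of 161 FPKM in the SFZ and 352 FPKM in the DZ. The sums, led by Col1a1 in every SFZ library, were 4239, 8059 and 4596 FPKM in R3-Cntl SFZ cells and 4425, 3976 and 11354 FPKM in SFZ libraries labelled R3-cKO. They were 452, 870 and 2708 FPKM in R3-Cntl DZ cells and 453, 805 and 2050 FPKM in DZ libraries labelled R3-cKO. Dcn was the highest gene of the list in R3-Cntl DZ libraries 1 and 2 and in DZ library 1 of R3-cKO, at 330.99, 257.95 and 227.19 FPKM. R3-cKO SFZ library 3 and R3-Cntl SFZ library 2 had the highest sums, and they also had the highest Fbn1 and Loxl1 among their genotypes. Fbn2 was the highest of its group in R3-Cntl SFZ library 2 (55.73 FPKM) but the lowest in R3-cKO SFZ library 3 (30.70 FPKM). Tnmd, a tendon marker, measured 14.08 to 85.60 FPKM in SFZ cells and was at most 1.14 FPKM in the DZ, where DZ libraries 1 and 3 of R3-cKO listed it at 0. Dpt was listed at 0 in R3-Cntl DZ library 1. The fibroblast and tendon list shares Col1a1, Col1a2, Col3a1 and Postn with the pathway lists, and the chondrocyte list shares Col2a1. The part of these marker genes in the zone difference of the members was not tested.

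**Figure D4:**
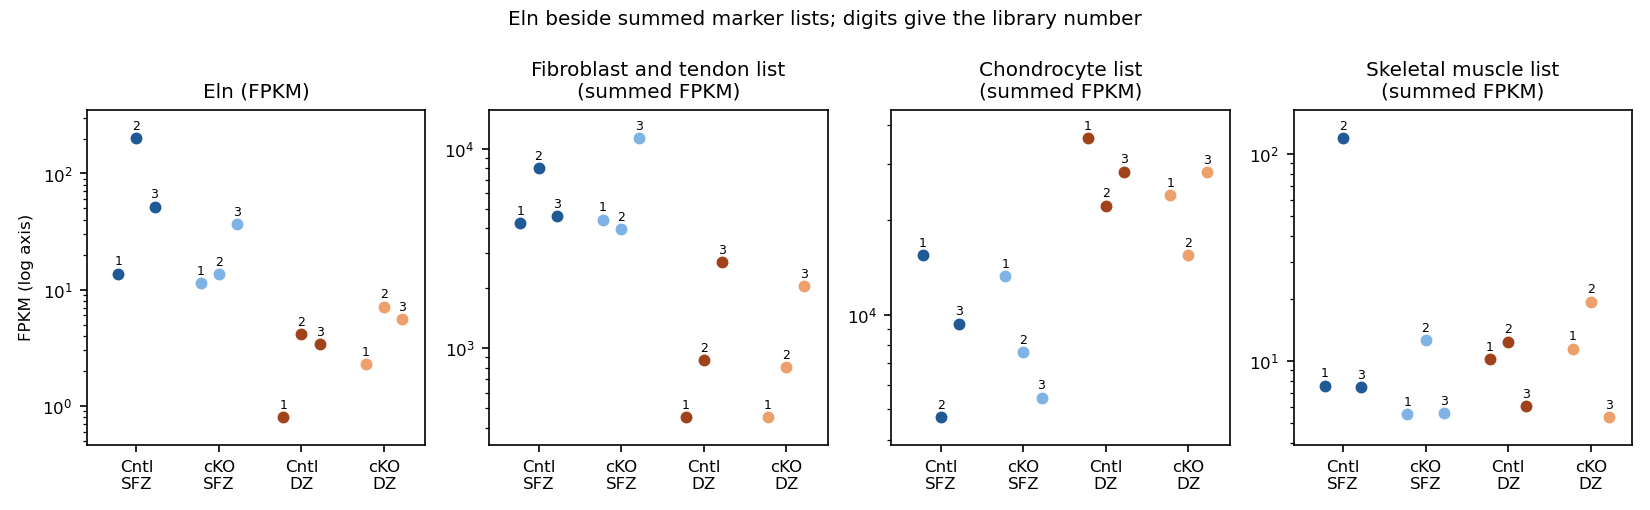
Eln and the summed fibroblast and tendon, chondrocyte and skeletal muscle markers (FPKM, log axes) in each library by genotype and zone, with points numbered by library. R3-Cntl SFZ library 2 has the highest Eln (201.31 FPKM), the highest skeletal muscle sum (119 FPKM) and the lowest chondrocyte sum (4729 FPKM).

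Among 8 superficial zone markers, Prg4 and Creb5 were called lower in the DZ and 0 higher. Gdf5 ran the other way and was not called (0.89, limma adjusted p = 0.0764). Its means were 3.65 FPKM in the SFZ and 7.22 FPKM in the DZ. Tnc had the highest mean and a zone difference of -0.25, not called. The list sums were 136 to 236 FPKM in the SFZ and 45.6 to 170 FPKM in the DZ. Prg4 in the SFZ was 22.24, 8.38 and 7.13 FPKM for R3-Cntl and 6.95, 2.47 and 2.13 FPKM for R3-cKO, without overlap and not called between genotypes (-1.45, standard error 0.52, limma adjusted p = 1). Of 8 macrophage markers, 6 were called lower in the DZ (C1qa, C1qc, Cd68, Csf1r, Lyz2 and Mrc1) and 0 higher, with sums led by Lyz2, and Adgre1, C1qa, C1qb and C1qc were listed at 0 in DZ library 3 of R3-cKO. Those sums were 172, 146 and 7.38 FPKM in R3-Cntl SFZ cells, 144, 14.8 and 68.9 FPKM in SFZ libraries labelled R3-cKO, and 3.52 to 23.8 FPKM in the DZ. Endothelial markers summed to at most 8.17 FPKM in any library, with Egfl7 leading, Emcn at 0 in all 6 DZ libraries, Cdh5, Cldn5 and Kdr at 0 in some, and 0 of 1 tested called. Of 3 skeletal muscle markers and 2 keratinocyte markers tested 0 were called, and keratinocyte sums stayed at or under 6.70 FPKM, with Trp63 highest in all libraries but library 1 of either DZ group, where Krt10 was, and Krt5, Krt14 and Krt15 were at 0 in some libraries. Of 5 osteoblast markers tested Bglap was called lower in the DZ and 0 were called higher. The zone differences of Ibsp (0.75), Spp1 (0.41) and Sp7 (0.24) ran the other way, that of Alpl (-0.70) did not, and none of these was called. The list sums of 266 to 1051 FPKM were led by Spp1, and Bglap and Dmp1 were each listed at 0 in 1 library.

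As a description over the 12 libraries, which share zones and genotypes, the members fell into those that varied with Eln and those that varied against it. Pearson correlations of log2 values (n = 12) were 0.96 for Eln with Fbn1, 0.96 for Fbn1 with Loxl1 and 0.91 for Eln with Loxl1. Loxl2 correlated at 0.86 with Loxl3 and 0.83 with Loxl4, and at -0.87 with Fbn1. Emilin1 correlated at -0.85 with Lox and -0.84 with Eln. The genes most like Eln across the table were Egr2 (0.97), Faap100 (0.96), Fbn1 (0.96), Ccl7 (0.95) and Ildr2 (0.95), and those most like Lox were Zc2hc1a (0.97), Sync (0.96), Plscr3 (0.96), Cblb (0.96) and Irgq (0.95). The points of both zones are pooled in these values, so they carry the zone difference.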

How the data were processed

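RNA-seq of 12 libraries was used, and every column of the deposited table was matched to a genotype, zone and number by its label. Reads were mapped to mm9 (Bowtie 0.12.2 in the processing notes), and the authors scaled the values by TMM. The deposited values are taken as FPKM from their behaviour, as the unit is not written beside them. No counts were analysed, which leaves the depth of each library and the counting error of its values unknown. Values were analysed as log2(FPKM + 1) in R 4.3.3 with limma 3.58.1 (mean-variance trend, Benjamini-Hochberg adjustment), after removal of genes that reached 1 FPKM in fewer than 3 libraries of the fit. The fit was also run on simulated data, and the outcome of that run is not given here. Summaries and exact permutation tests used Python 3.11.15, pandas 2.3.3, NumPy 2.4.6 and SciPy 1.17.1, and mm9 positions came from GENCODE. Pairing by library number was checked from correlations between libraries once group means were removed.

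All 10 members, Runx3 and Ddx3y are named. Pathway list genes are named when called between zones or among the 3 with the highest mean, and cell type marker genes when called, highest or listed at 0. The 5 genes most correlated with Eln and with Lox are also named. Mylpf, Myh11, Tagln, Krt10, Bmp1, Atp7a, Atox1, Slc31a1, Col9a2, Col9a3, Dcn, Pdgfra, Gdf5, Ibsp, Sp7 and Alpl were named after their values were seen. The members and lists were chosen with earlier results of these data known. Alternatives were quantile normalization, scaling by median-of-ratios size factors, no filter, a minimum mean of 10 FPKM, a pseudocount of 0.1 or 5, a replicate block, all 12 libraries in a single model and each library left out. The other experiments of the study were not analysed here.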

Additional observations from a re-analysis of the deposited data

Results flagged for a closer look

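Eln in R3-Cntl SFZ library 2 measured 201.31 FPKM, while the other 5 SFZ libraries lay between 11.31 and 51.81 FPKM. Its gap to the nearest library was 0.787 of the whole SFZ range, which is beyond the 95% limit of Dixon's test for 6 values (0.625). On the log2(FPKM + 1) scale the gap was 0.480 of the range, within that limit, and 0 of the 20 groups passed it. Each of the 10 members was examined in both zones, 20 groups in all, of which chance alone gives about 1 such library, and 1 was found in FPKM. The same library had the highest sum of skeletal muscle markers (119 FPKM) and the lowest sum of chondrocyte markers (4729 FPKM), and their part in the Eln value was not tested. The zone difference of Eln was -2.86 with this library and -2.39 without it, and its genotype difference in SFZ cells was -1.51 with it and -0.56 without it.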

How the results depend on the processing

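With 3 libraries in a group and no read counts, small differences cannot be resolved, and adjusted p-values moved with single libraries. No member changed direction in the zone comparison over both genotypes under any alternative run. Its 2424 genes became 1008 with a minimum mean of 10 FPKM (fewer genes tested), 3949 with a replicate block, 1245 to 2796 with a library left out, and 570 without both R3-Cntl SFZ library 2 and R3-Cntl DZ library 1. Members called were 5 to 8 with a library left out and 4 without both. The 140 genes called between zones in R3-Cntl became 0 without a filter, 8 with a minimum mean of 10 FPKM, 88 and 29 with pseudocounts of 0.1 and 5, 4 with quantile normalization, 17 with median-of-ratios size factors, 831 (5 members) with a replicate block, 798 (6 members) in a single model of 12 libraries, 0 to 505 (0 to 4 members) with a library left out, and 0 without both libraries. The 2 genes called in the libraries labelled R3-cKO became 7 without a filter, 0 with a minimum mean of 10 FPKM, 1 with either pseudocount, 352 (3 members) with a replicate block, 167 (1 member) in a single model and 0 to 5 with a library left out. Genotype and interaction fits in limma called 0 genes and 0 members under every alternative run, and with the replicate block 51 SFZ genes, 1830 DZ genes and 949 interaction genes had an unadjusted p under 0.05.

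Signs changed for values that were never called. With a library left out, Lox between zones in R3-cKO ran from -0.59 to 0.19. The SFZ genotype difference ran from -0.39 to 0.26 for Loxl1 (-0.000585 with a pseudocount of 5), -0.52 to 0.10 for Fbn1, -0.36 to 0.0189 for Fbln5, -1.21 to 0.18 for Lox and -0.74 to 0.0362 for Loxl3. The DZ genotype difference ran from -0.27 to 1.53 for Fbn2, -0.47 to 0.16 for Fbln5, -0.14 to 0.56 for Loxl1 and -0.62 to 0.24 for Loxl4. The interaction ran from -0.30 to 0.34 for Fbln5 (-0.0396 with quantile normalization and -0.0526 with median-of-ratios size factors), -0.14 to 0.62 for Loxl1, -0.0291 to 0.59 for Loxl2, -0.12 to 1.11 for Loxl4 and -0.0258 to 1.77 for Fbn2. Without both libraries it was -0.0902 for Fbn1, -0.20 for Fbn2 and -0.37 for Loxl1. Leaving out both libraries was chosen after seeing the data. Apart from the number of genes or libraries in a fit, the cause was not tested.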
